A study of Mus musculus with 2 samples.

Results

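The extracellular matrix and integrin genes described here were chosen by gene symbol, with earlier results of these data known. The name rule takes in collagen chains, integrin alpha and beta subunits, laminin chains, nidogens, perlecan (Hspg2), agrin, Sparc and Sparcl1, fibrillins, fibulins, fibronectin, tenascin C, thrombospondins, chondroadherin and elastin, and it found 106 of the 22072 gene symbols in the tables. Of these, 5 share only a name with the others, since Col4a3bp, Itgb1bp1, Itgb1bp2, Itgb1bp3 and Itgb3bp encode proteins that are neither matrix proteins nor integrin subunits. They were kept as the rule has them and are named as such below.

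RNA sequencing was done on cells sorted from adult mouse lung as lineage-negative, CD326-positive (Epcam) and CD24-intermediate, a gate meant to hold secretory cells of the bronchioles that lack motile cilia. There were 2 libraries, 1 per genotype, each made from RNA of 4 mice pooled. The library labelled Mst1/2-deleted, called the deleted pool after its label, came from mice that carried Scgb1a1-rtTA, tetOCre and floxed alleles of both kinase genes (Mst1-flx/flx and Mst2-flx/flx), in which doxycycline activates rtTA under the club cell promoter Scgb1a1, and rtTA in turn switches on Cre. The control library, or control pool, came from tetOCre/Mst1-flx/flx;Mst2-flx/flx mice, which have both floxed genes and the Cre transgene but no rtTA. All mice ate doxycycline food (625 mg/kg) for 16 days, so active rtTA and Cre cannot be told apart from loss of Mst1 and Mst2. Single mice were not measured, so no difference has a spread between replicates or a p-value.

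The basement membrane is a thin sheet of matrix on which epithelium sits. Its scaffold is a network of type IV collagen joined to a network of laminins, which are trimers of 1 alpha, 1 beta and 1 gamma chain, with nidogens, perlecan and agrin linking the networks. Cells hold on to it through integrins, which are dimers of an alpha and a beta subunit, and through non-integrin receptors such as dystroglycan. In the alveolus the basement membranes of type 1 cells and capillaries are fused, and collagen IV chains alpha 3, alpha 4 and alpha 5 form a network that is known from the kidney glomerulus and the alveolus. Mst1 and Mst2 are the upstream kinases of the Hippo pathway, whose effectors Yap and Taz act through Tead factors.

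Levels are in FPKM, read fragments relative to transcript length and library size, which allows levels of genes of different length to be set side by side. A gene was counted in a comparison when 1 or both libraries reached an FPKM of 1, which held for 9945 genes and for 41 of the 106 genes of the rule. A gene was called higher or lower when log2(FPKM + 1) differed by 1.5-fold or more, a scale that shrinks differences between low values. Ratios are those of FPKM itself, deleted pool over control pool. Their 95% intervals (exact Clopper-Pearson, on reads inferred from coverage) cover counting error only. The depth on transcripts was about 8340000 reads for the deleted pool and about 8770000 for the control pool. The intended target Stk4 (Mst1) had an FPKM of 4.71 in the deleted pool and 5.38 in the control pool, and Stk3 (Mst2) had 7.09 in the deleted pool against 7.28 in the control pool. The labels do not say which exons Cre removes, and these levels over whole transcripts do not check the deletion.

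Nearly all counted genes of the epithelial basement membrane had higher values in the deleted pool, most by less than 1.5-fold. The other matrix and integrin genes went both ways. Of the 41 genes counted, 5 were higher by the 1.5-fold rule (Sparc, Fbln5, Agrn, Col4a4 and Col4a3) and 3 lower (Chad, Itgb2 and Sparcl1). With a pseudocount of 5 in place of 1, only Sparc and Chad passed the rule, and with a filter at FPKM of 5, Sparc, Agrn and Chad. Among all 9945 genes, 3.02% were higher and 2.59% lower, and 5.61% passed the rule in either direction, against 19.5% of the 41. The name rule and the groups were set with earlier results of these data known, so these shares and those of groups are descriptive only. The median log2 difference of the 41 was 0.26, against 0.07 over the 9945 genes, and 27 of the 41 (65.9%) lay above 0, against 63.2% of the 9945. The other 65 genes of the rule stayed under FPKM of 1 in both libraries. There were 24 basement membrane genes (type IV collagens, laminins, nidogens, perlecan, agrin, and collagens VII, XV and XVIII). Of these, 14 were counted, 13 (92.9%) lay above 0, and the median of the 14 was 0.38. The 10 not counted, all under FPKM of 1, mostly went the other way. Lamb1 and Col18a1 lay above 0, and Lama1, Lama2, Lama4, Lamc3, Nid1, Nid2, Col7a1 and Col15a1 below. The FPKM of all 24 summed to 82.5 in the deleted pool and 58.0 in the control pool. Differences above 0 shrank when the trend with transcript length was subtracted. The log2 difference went from 0.22 to 0.084 for Lama5, from 0.17 to 0.059 for Col4a5 and from 0.35 to 0.21 for Lama3.

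**Figure D1:**
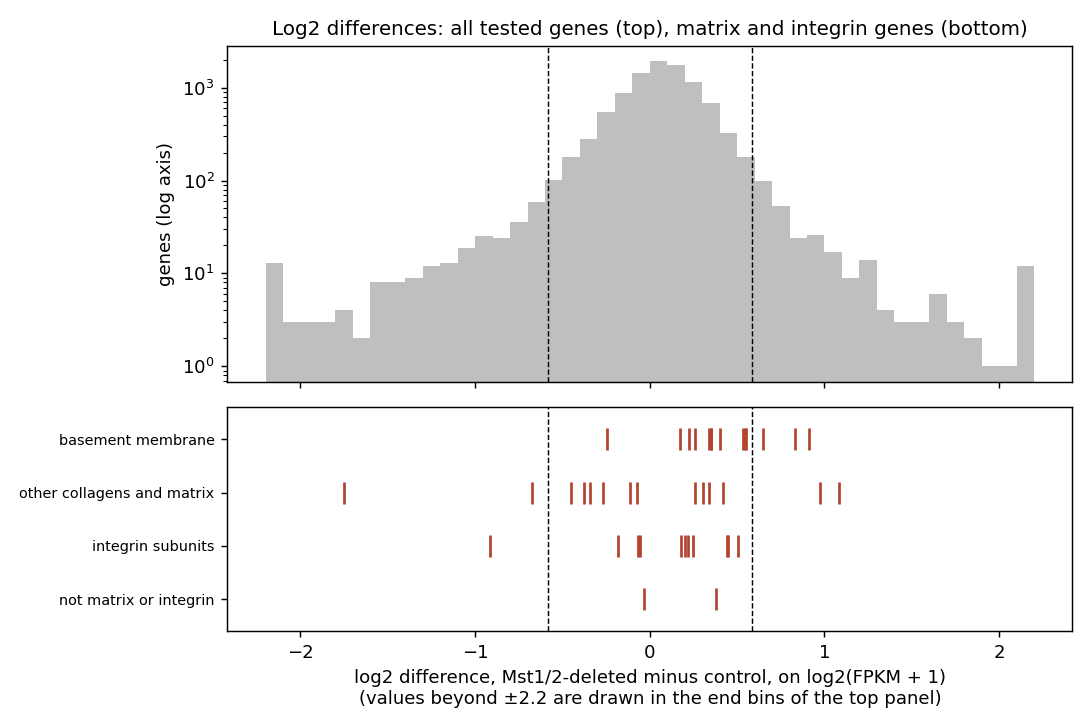
The top panel shows the number of genes (log axis) by log2 difference, the deleted pool minus control on log2(FPKM + 1), for all 9945 genes counted; the bottom panel marks each of the 41 matrix and integrin genes by group. Dashed lines mark 1.5-fold. In the basement membrane row, 13 of 14 marks lie right of 0, whereas the other matrix genes spread to both sides, with Chad at -1.75 and Sparc at 1.08.

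Of the 6 type IV collagen chains, all were counted, 2 were higher by the rule and 5 lay above 0, and their summed FPKM was 33.2 in the deleted pool against 23.1 in the control pool. Col4a4 had an FPKM of 2.87 in the deleted pool and 1.18 in the control pool, a ratio of 2.44 (interval 2.10 to 2.85). Col4a3, its partner in the alpha 3, 4, 5 network, had FPKM of 3.15 in the deleted pool against 1.64 in the control pool, a ratio of 1.91 (1.69 to 2.18). Both passed the 1.5-fold rule, and Col4a3 missed it when the median of all genes was subtracted (log2 difference 0.58) and when the trend with transcript length was subtracted (0.52).

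Col4a1 and Col4a2, which encode the chains found in nearly every basement membrane, had close ratios. Col4a1 had an FPKM of 8.44 in the deleted pool and 5.53 in the control pool, a ratio of 1.53 (1.40 to 1.66). Col4a2 had FPKM of 10.8 in the deleted pool against 7.11 in the control pool, a ratio of 1.52 (1.42 to 1.64). Both missed the 1.5-fold rule on the log2(FPKM + 1) scale, at 0.53 for Col4a1 and 0.55 for Col4a2, and passed it with a pseudocount of 0.1. The pair on the X chromosome differed less. Col4a5 had FPKM of 6.10 in the deleted pool and 5.30 in the control pool, a ratio of 1.15 (1.04 to 1.24), and Col4a6 was the type IV chain on the other side of 0, at 1.84 in the deleted pool against 2.37 in the control pool, a ratio of 0.779 (0.670 to 0.906).

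These 6 genes lie as 3 head-to-head pairs, so that partners are read in opposite directions from 1 shared stretch of DNA. In the mm9 coordinates of the tables, Col4a1 (chr8:11198423-11312826) and Col4a2 (chr8:11312829-11449287) are 2 bases apart, Col4a4 (chr1:82447298-82583424) and Col4a3 (chr1:82583496-82718634) are 71 bases apart, and Col4a6 (chrX:137599946-137908619) and Col4a5 (chrX:137909962-138123778) are 1342 bases apart. Partners had like ratios in the Col4a1 and Col4a2 pair, overlapping intervals in the Col4a3 and Col4a4 pair, and ratios on opposite sides of 1 in the Col4a5 and Col4a6 pair. The promoter windows of Col4a1 and Col4a2 in RefSeq (GRCm38.p6, 250 bases before to 50 after each start site) are shown because they cover 1 shared region. Col4a1 is on the minus strand at chr8:11312777-11313076 and Col4a2 on the plus strand at chr8:11312555-11312854 of that build, both written 5′ to 3′ along their gene. By the start sites of these windows, the 5′ ends of both genes overlap, so the 2-base gap of the mm9 coordinates does not hold there. Capitals mark the 78 bases that both windows cover, which are reverse complements of each other.
Col4a1: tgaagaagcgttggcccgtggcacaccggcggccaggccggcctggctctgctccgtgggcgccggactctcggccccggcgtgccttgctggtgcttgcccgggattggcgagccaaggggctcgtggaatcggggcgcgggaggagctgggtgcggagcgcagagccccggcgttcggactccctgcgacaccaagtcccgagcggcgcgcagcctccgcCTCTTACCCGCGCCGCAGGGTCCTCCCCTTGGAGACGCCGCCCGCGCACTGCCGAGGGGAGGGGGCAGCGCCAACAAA
Col4a2: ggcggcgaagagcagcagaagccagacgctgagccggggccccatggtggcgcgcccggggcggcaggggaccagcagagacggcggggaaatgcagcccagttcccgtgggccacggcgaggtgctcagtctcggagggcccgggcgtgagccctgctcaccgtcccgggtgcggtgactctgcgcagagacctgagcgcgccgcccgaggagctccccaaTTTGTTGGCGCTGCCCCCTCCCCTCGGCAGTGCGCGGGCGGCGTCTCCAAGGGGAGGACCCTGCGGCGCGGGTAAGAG
Both windows are rich in G and C (74% for Col4a1 and 73.7% for Col4a2). The GC box letters GGGCGG, on either strand, occurred 1 time in the Col4a1 window and 3 times in the Col4a2 window, and 1 match, counted in both windows, lies in the shared stretch. The letters CCAAT occurred 1 time in each window, running 1 base into the shared stretch in that of Col4a2 and lying outside it in that of Col4a1.

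The counted laminin chains lay above 0 together, none of them past the 1.5-fold rule. Of 11 chains, 6 were counted and all 6 lay above 0, with a median log2 difference of 0.35 and the lowest value, 0.22, for Lama5. Lama3 and Lamb3 encode chains of laminin-332, the anchoring laminin under epithelial hemidesmosomes. Lama3 had FPKM of 2.97 in the deleted pool against 2.12 in the control pool, a ratio of 1.40 (1.26 to 1.56). Lamb3 had FPKM of 6.22 in the deleted pool and 4.70 in the control pool, a ratio of 1.32 (1.18 to 1.49). The alpha chain was the lower of both in each library.

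Chains of laminin-521 (Lama5, Lamb2 and Lamc1), a laminin of mature lung basement membrane, were also above 0. Lamb2 had an FPKM of 8.52 in the deleted pool against 6.20 in the control pool, a ratio of 1.37 (1.26 to 1.4998). Lamc1 had FPKM of 6.89 in the deleted pool and 5.20 in the control pool, a ratio of 1.32 (1.22 to 1.44). Lama5 had FPKM of 5.16 in the deleted pool against 4.28 in the control pool, a ratio of 1.21 (1.12 to 1.30). Lamb1, the beta chain of laminin-511, was far lower than Lamb2 in both libraries, at 0.328 in the deleted pool and 0.306 in the control pool. Lama1, Lama2, Lama4 and Lamc3 stayed between 0 and 0.432, and each was lower in the deleted pool. Lama2 had 0.0173 in the deleted pool against 0.158 in the control pool, 9.09-fold lower (3.32 to 35.2). Lama4 had 0.190 in the deleted pool and 0.432 in the control pool, 2.27-fold lower (1.45 to 3.65). Summed over chains of a kind, alpha chains had FPKM of 8.36 in the deleted pool against 7.01 in the control pool and beta chains 15.1 in the deleted pool and 11.2 in the control pool.

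**Figure D2:**
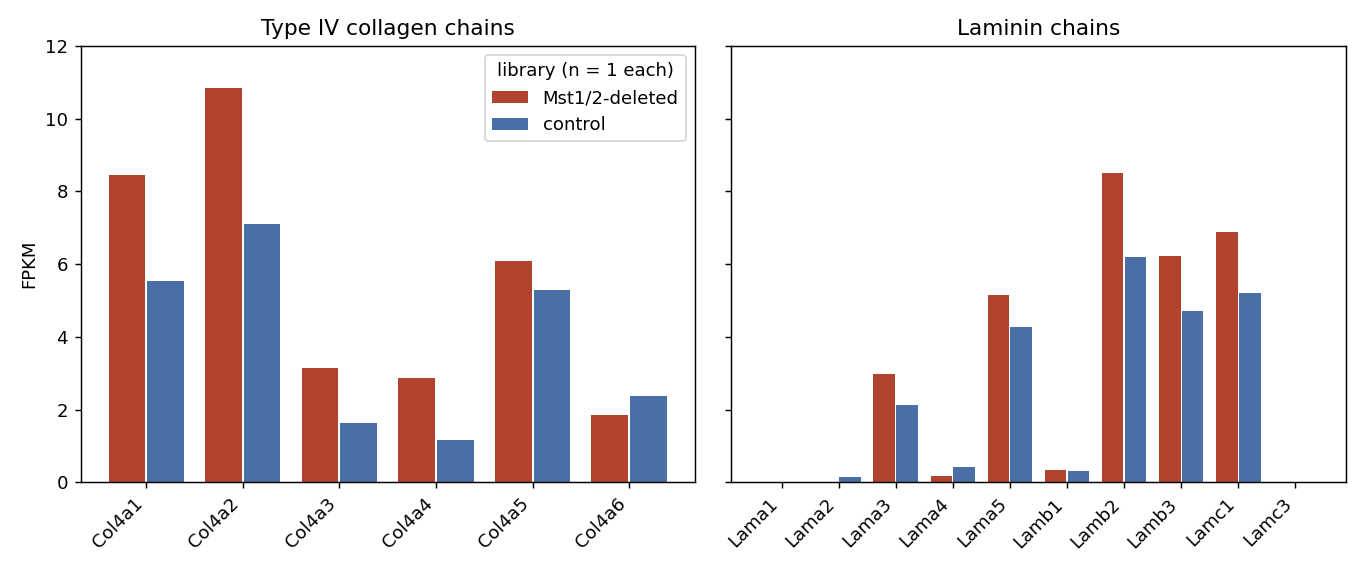
FPKM of the 6 type IV collagen chains (left) and 10 laminin chains (right), with the deleted pool as the left bar and the control pool as the right bar of each pair (1 library each, so no error bars). Of the chains above FPKM of 1, only Col4a6 is lower in the deleted pool, and Lama1, Lama2, Lama4, Lamb1 and Lamc3 are near 0.

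The proteins that link the collagen and laminin networks did not move alike. Agrn encodes agrin, a heparan sulfate proteoglycan that binds laminin and dystroglycan (chr4:155539399-155559244, mm9). It had an FPKM of 8.18 in the deleted pool and 3.89 in the control pool, a ratio of 2.10 (1.92 to 2.30), and passed the 1.5-fold rule. Perlecan (Hspg2), the other large proteoglycan of basement membranes, had FPKM of 2.31 in the deleted pool against 1.76 in the control pool, a ratio of 1.31 (1.18 to 1.45). Both nidogens were low, with Nid1 at 0.206 in the deleted pool and 0.324 in the control pool and Nid2 at 0.0706 in the deleted pool against 0.0769 in the control pool. Hspg2, Nid1 and Nid2 fall outside the rule for named genes and were chosen with their values known.

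Marker genes of cells other than those the gate was meant to hold were detected, and some moved with the basement membrane genes. Of 11 counted alveolar type 1 cell markers, 9 were higher by the 1.5-fold rule and none lower, and the FPKM of the 12 listed summed to 451 in the deleted pool and 201 in the control pool. None of the 12 was at 0 in either library, and Ager, a membrane receptor that marks these cells, was at 107 in the deleted pool against 32.9 in the control pool. Markers of alveolar type 2 cells had 1 of 10 higher, with sums of 14320 in the deleted pool and 11451 in the control pool, and ciliated cell markers 2 of 5 higher, with sums of 48.9 in the deleted pool against 30.2 in the control pool. The part of these cells in the values of the basement membrane genes was not tested. Sums were 4.37 in the deleted pool and 7.04 in the control pool for mesothelial markers. Of the 2 counted, Upk3b was lower by the rule, at 0.575 in the deleted pool against 3.47 in the control pool. Msln lay above 0, at 3.50 in the deleted pool and 2.58 in the control pool. Endothelial markers summed to 7.14 in the deleted pool against 11.5 in the control pool. Kdr, the 1 counted, made up most of this and was lower, at 5.11 in the deleted pool and 9.05 in the control pool. Under FPKM of 1, Cdh5, Tie1, Cldn5 and Egfl7 were higher in the deleted pool, and Pecam1, Tek, Eng and Emcn lower. Club cell markers summed to 6307 in the deleted pool and 6666 in the control pool. Scgb1a1 was listed at 0 in both, so these sums hold nothing from it, and the cause was not tested. In RNA from pooled cells, more cells of a type and more RNA per cell cannot be told apart.

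Sparc was the most abundant of all 106 genes in the deleted pool and second to Chad in the control pool. It encodes a secreted glycoprotein that binds collagen, type IV collagen among others, and calcium (chr11:55208003-55233582, mm9). Its FPKM was 110 in the deleted pool against 51.4 in the control pool, a ratio of 2.14 (2.05 to 2.23), and it made up 31.9% of the summed FPKM of the 106 genes in the deleted pool and 17.6% in the control pool. Its relative Sparcl1 went the other way, with FPKM of 1.04 in the deleted pool and 2.26 in the control pool, 2.17-fold lower (1.66 to 2.85).

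Chad had the largest difference of the 41 genes on the log2(FPKM + 1) scale. It encodes chondroadherin, a leucine-rich repeat protein described in cartilage, where it binds collagen and integrin alpha 2 beta 1. Chad (chr11:94426388-94430441, mm9) had an FPKM of 18.5 in the deleted pool against 64.6 in the control pool, 3.49-fold lower (3.22 to 3.79). Itga2, the alpha subunit of that receptor, was near 0, with FPKM of 0.119 in the deleted pool and 0.127 in the control pool. Chad lies wholly within the span of Acsf2, a gene on the opposite strand in RefSeq, which had FPKM of 15.7 in the deleted pool against 29.0 in the control pool. Without strand, reads of both cannot be told apart where their exons overlap. In the deleted pool, club cell markers had 2 of 6 lower by the rule and mucous cell markers 4 of 4, with mucous sums of 10.1 in the deleted pool and 31.4 in the control pool, and the part of these cells in the level of Chad was not tested.

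RefSeq promoter windows (GRCm38.p6, same limits) of the abundant genes with the largest differences up and down, Sparc (chr11:55420031-55420330, minus strand) and Chad (chr11:94564797-94565096, plus strand), are shown with that of Lamb3 (chr1:193301993-193302292, plus strand; the downstream of 2 windows), chosen because it holds the core letters of Tead binding sites. Capitals mark matches to 4 sets of letters searched on both strands, GGAATG (Tead core), TGANTCA (AP-1), GGGCGG (GC box) and CCAAT; no matches overlap in these 3 windows.
Sparc: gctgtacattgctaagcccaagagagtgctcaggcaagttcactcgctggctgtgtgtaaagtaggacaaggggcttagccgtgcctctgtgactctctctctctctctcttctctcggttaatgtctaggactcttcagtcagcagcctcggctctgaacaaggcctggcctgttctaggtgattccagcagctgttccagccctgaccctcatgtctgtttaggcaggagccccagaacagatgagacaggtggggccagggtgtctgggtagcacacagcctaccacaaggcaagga
Lamb3: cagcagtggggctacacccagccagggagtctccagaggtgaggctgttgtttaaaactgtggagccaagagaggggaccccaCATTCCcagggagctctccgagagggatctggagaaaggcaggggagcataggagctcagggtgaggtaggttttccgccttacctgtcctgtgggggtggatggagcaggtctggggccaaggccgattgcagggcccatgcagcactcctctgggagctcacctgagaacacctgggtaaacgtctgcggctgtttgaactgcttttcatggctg
Chad: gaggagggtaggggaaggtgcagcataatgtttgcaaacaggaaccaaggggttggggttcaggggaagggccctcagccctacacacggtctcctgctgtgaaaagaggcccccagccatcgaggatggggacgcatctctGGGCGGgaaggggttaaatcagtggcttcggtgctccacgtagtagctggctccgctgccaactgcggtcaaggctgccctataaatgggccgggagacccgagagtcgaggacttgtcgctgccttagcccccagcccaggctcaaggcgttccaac
The Lamb3 window holds GGAATG on the minus strand 167 bases before the start site, the Chad window holds GGGCGG 108 bases before it, and the Sparc window holds none of the 4. Of the 41 counted genes, 28 had a window in the table, and 5 of these held GGAATG (Col3a1, Col4a6, Col6a2, Itgb1 and Lamb3), against 14.6% of all 32544 windows. None of the 4 genes with a window among those higher by the 1.5-fold rule held it. For TGANTCA the count was 3 of 28, against 7.79% of all windows, for GGGCGG 19 of 28, against 35.9%, and for CCAAT 7 of 28, against 37.4%. A gene was counted when any of its windows held the letters, whereas the shares of all windows count each window once. Genes with more than 1 window thus had more chances of a match, and these counts and shares are not alike in unit. A match is a match of letters, not a known site.

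Other adhesive and matricellular genes were split. Thbs1, which encodes thrombospondin 1, an adhesive glycoprotein that can activate latent TGF-beta, had an FPKM of 18.4 in the deleted pool against 13.6 in the control pool, a ratio of 1.36 (1.28 to 1.44). Thbs3 had FPKM of 4.43 in the deleted pool and 3.54 in the control pool. Fn1, which encodes fibronectin, was at 1.27 in the deleted pool against 1.95 in the control pool, a ratio of 0.651 (0.557 to 0.762). Tnc (tenascin C), Thbs2 and Thbs4 stayed under 0.1 in both libraries. Fbln5 encodes fibulin 5, which binds integrins and helps assemble elastic fibres, and it was higher by the 1.5-fold rule, with FPKM of 1.72 in the deleted pool and 0.384 in the control pool and a ratio of 4.47 (3.34 to 5.97). Elastin and fibrillin 1 went the other way at low levels. Eln (elastin) had FPKM of 0.156 in the deleted pool against 0.554 in the control pool, and Fbn1 (fibrillin 1) had 0.0991 in the deleted pool and 0.427 in the control pool.

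**Figure D3:**
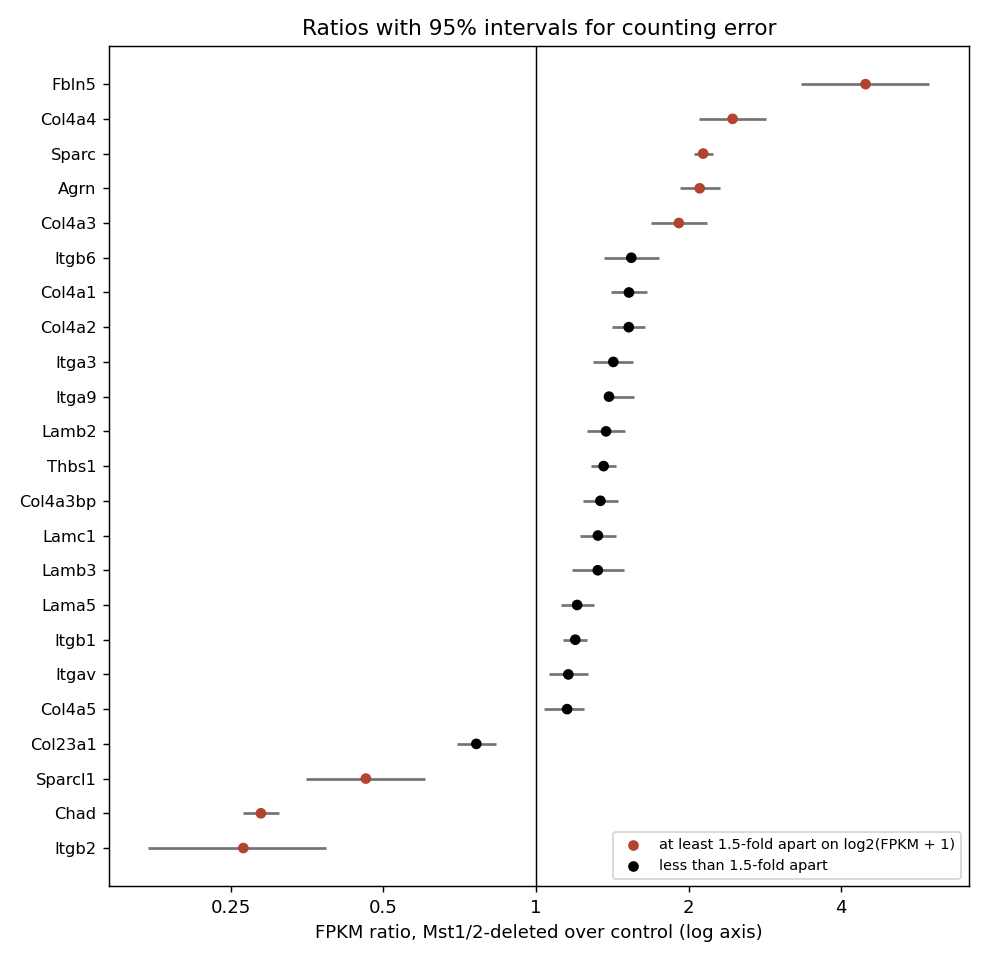
Ratio of FPKM, the deleted pool over the control pool (log axis), for 18 of the 19 genes with FPKM of at least 5 in a library and those 1.5-fold or more apart on log2(FPKM + 1), with 95% intervals for counting error. For Itga9 and Col4a5, with 2 transcript entries of unequal length each, the interval is that of the summed reads and is not centred on the FPKM ratio. Fbln5 is at 4.47 with a wide interval, Sparc and Agrn are at 2.14 and 2.10, and Sparcl1, Chad and Itgb2 lie below 0.5.

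Fibrillar collagens, the rope-like collagens of interstitial matrix made mainly by fibroblasts, were low. Of 11 chains, 2 were counted and both lay below 0. Col3a1 had an FPKM of 0.746 in the deleted pool against 1.39 in the control pool, a ratio of 0.536 (0.417 to 0.682), and Col1a2 had 1.20 in the deleted pool and 1.32 in the control pool. Col1a1 just missed the filter, at 0.828 in the deleted pool against 0.824 in the control pool. The 2 mesenchymal markers counted (Dcn and Mfap4) were lower in the deleted pool by the rule. The sum over 12 markers was 6.79 in the deleted pool and 17.9 in the control pool, most of it Dcn. Of those under FPKM of 1, Lum, Mfap5, Pdgfra, Pdgfrb, Tcf21 and Tagln were lower in the deleted pool. Acta2 (0.604 in the deleted pool against 0.291 in the control pool), Myh11, Cnn1 and Des were higher. The part of mesenchymal cells in the values of these collagens was not tested.

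Among the other collagens, Col23a1 had the highest level. It encodes a transmembrane collagen, and its FPKM was 6.06 in the deleted pool against 7.95 in the control pool, a ratio of 0.763 (0.697 to 0.833). Col6a1 and Col6a2, chains of the microfibrillar collagen VI, differed in direction, at 3.17 in the deleted pool and 2.30 in the control pool for Col6a1 and at 1.34 in the deleted pool against 1.81 in the control pool for Col6a2. Col8a1 had 2.38 in the deleted pool and 2.65 in the control pool, and Col12a1 1.07 in the deleted pool against 0.680 in the control pool. Col17a1, the hemidesmosomal collagen of basal cells, had 0.681 in the deleted pool and 0.720 in the control pool, and Col7a1, the anchoring fibril collagen, 0.117 in the deleted pool against 0.179 in the control pool. Over all 42 collagen chains, 13 were counted, with 7 above 0 and 6 below.

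Integrin subunits differed little, with 10 counted subunits other than those of leukocytes and platelets all within 1.5-fold on the log2(FPKM + 1) scale and 7 of them (70.0%) above 0, against 63.2% of all genes counted. Itgb1, the beta subunit shared by most matrix-binding integrins, had an FPKM of 25.8 in the deleted pool and 21.6 in the control pool, a ratio of 1.20 (1.13 to 1.26), and made up 70.5% of the summed FPKM of 9 beta subunits in the deleted pool and 67.9% in the control pool. The most abundant alpha partner was Itga9, whose product binds tenascin C and other ligands, at 13.4 in the deleted pool against 9.59 in the control pool. Itga3, whose product pairs with beta 1 as a receptor for laminin-332 and the alpha 5 laminins, had FPKM of 9.05 in the deleted pool and 6.37 in the control pool, a ratio of 1.42 (1.30 to 1.56). Itga7, another laminin receptor subunit, had 2.01 in the deleted pool against 1.58 in the control pool, and Itga5, of the fibronectin receptor, had 1.19 in the deleted pool and 0.908 in the control pool.

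The hemidesmosomal integrin alpha 6 beta 4 did not share this direction. Itga6 had an FPKM of 3.34 in the deleted pool against 3.55 in the control pool, a ratio of 0.941 (0.812 to 1.09), and Itgb4 had 2.27 in the deleted pool and 2.71 in the control pool, a ratio of 0.837 (0.723 to 0.966). Of 5 counted basal cell markers, 3 were lower in the deleted pool by the rule, with sums of 9.48 in the deleted pool against 25.4 in the control pool, and their part in these values was not tested. Itgb6, whose product pairs with alpha v into an epithelial receptor that activates latent TGF-beta, had FPKM of 5.31 in the deleted pool and 3.44 in the control pool, a ratio of 1.54 (1.36 to 1.75). Its partner Itgav had 5.92 in the deleted pool against 5.11 in the control pool, a ratio of 1.16 (1.06 to 1.27). Beta partners of Itgav other than Itgb1 and Itgb6 were lower in level than Itgb6 in both libraries, with Itgb5 at 1.36 in the deleted pool and 1.46 in the control pool, Itgb3 at 0.582 in the deleted pool against 0.197 in the control pool, and Itgb8 at 0.101 in the deleted pool and 0.0914 in the control pool.

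Integrins of leukocytes were low. Itgb2, the shared beta subunit of the leukocyte integrins, was lower by the 1.5-fold rule, with FPKM of 0.468 in the deleted pool against 1.77 in the control pool, 3.78-fold lower (2.59 to 5.82). Its alpha partners were under FPKM of 1 in both libraries. Itgax had 0.0901 in the deleted pool and 0.682 in the control pool, Itgal 0.274 in the deleted pool against 0.434 in the control pool, Itgam 0.0831 in the deleted pool and 0.172 in the control pool, and Itgad 0.0205 in the deleted pool against 0.0181 in the control pool. Of 8 counted leukocyte markers, 4 were lower by the rule and none higher, and all 11 summed to 40.2 in the deleted pool and 46.2 in the control pool. Ptprc, the pan-leukocyte CD45 gene, had FPKM of 0.172 in the deleted pool against 0.519 in the control pool. Csf1r, a macrophage receptor gene, went the other way, at 1.80 in the deleted pool and 0.984 in the control pool, as did the B cell gene Cd79a, at 1.06 in the deleted pool and 0.527 in the control pool. Lcp1, an actin-bundling protein gene, made up most of the sum, at 32.5 in the deleted pool and 30.3 in the control pool. None of the 11 was at 0, and their part in the level of Itgb2 was not tested. Of 5 platelet markers, set here beside the platelet subunit genes Itgb3 and Itga2b, 1 was counted, Pf4, at 0.852 in the deleted pool and 1.03 in the control pool. All 5 summed to 1.03 in the deleted pool and 1.17 in the control pool. Ppbp was listed at 0 in both libraries, Gp9 in the control pool and Treml1 in the deleted pool, and the part of platelets in the level of Itgb3 was not tested.

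**Figure D4:**
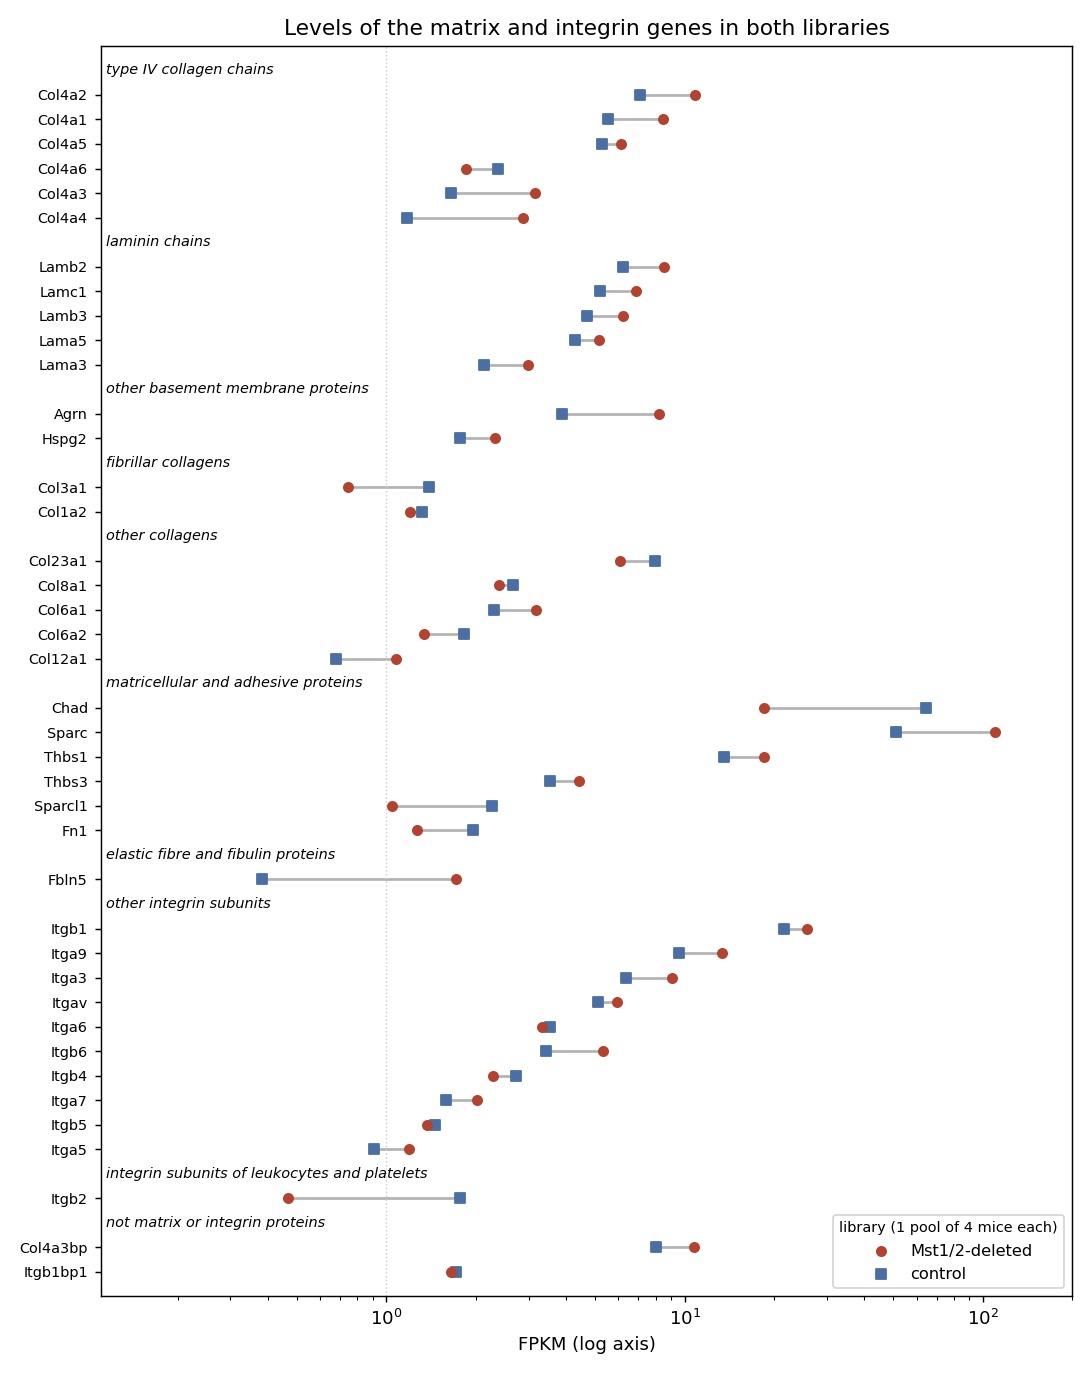
FPKM (log axis) of 40 of the 41 genes counted, by group, with circles for the deleted pool and squares for the control pool; the dotted line marks FPKM of 1. Sparc is highest in the deleted pool, where Chad stands below Itgb1, Chad is highest in the control pool, and the laminins shown and 5 of 6 type IV collagens have the circle to the right.

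Genes that build, modify and sense this matrix were set beside it from 4 lists. For comparison, of all 9945 genes counted, 63.2% lay above 0, 3.02% were higher and 2.59% lower, and the median was 0.07. The 26 counted genes of the integrin adhesion complex had a median log2 difference of 0.34, 22 (84.6%) lay above 0, and 1 was higher by the rule. Among those with FPKM of at least 5, the largest differences were those of Pxn (paxillin, 12.7 in the deleted pool and 8.51 in the control pool), Ilk (integrin-linked kinase, 21.5 in the deleted pool against 14.7 in the control pool) and Ptk2 (focal adhesion kinase, 6.001 in the deleted pool and 3.87 in the control pool). Non-integrin receptors had 3 of 14 higher, none lower, and a median of 0.24. Dag1 and Bcam, the abundant genes among the 3, encode laminin receptors. Dag1, which encodes dystroglycan, the receptor that agrin, perlecan and laminins share, had FPKM of 59.3 in the deleted pool against 37.6 in the control pool, a ratio of 1.58 (1.52 to 1.64). Bcam, which encodes the Lutheran glycoprotein, a receptor for laminin alpha 5, had 78.7 in the deleted pool and 51.9 in the control pool, a ratio of 1.52 (1.45 to 1.59). Cd44, the hyaluronan receptor gene, was on the other side of 0, at 30.5 in the deleted pool against 43.1 in the control pool.

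The enzymes and chaperones of collagen synthesis went both ways. Of 19 counted, 9 lay above 0 and 10 below, 1 was higher and 1 lower by the rule, and the median was -0.0033. Among those with FPKM of at least 5, Mia3, which encodes a protein for export of large cargo such as procollagen, had FPKM of 7.88 in the deleted pool and 10.4 in the control pool. Serpinh1, the collagen chaperone HSP47 gene, had 9.03 in the deleted pool against 7.23 in the control pool, and the prolyl hydroxylase subunit P4ha2 had 10.2 in the deleted pool and 8.50 in the control pool. The 20 counted genes of other matrix glycoproteins and proteoglycans went both ways, with 3 higher, 4 lower and a median of 0.29. Ctgf, a matricellular protein gene and Yap target, had FPKM of 17.2 in the deleted pool against 4.30 in the control pool. In the same list, Cyr61 and Nov were also higher but missed the 1.5-fold rule. Cyr61 had 85.7 in the deleted pool and 61.4 in the control pool, a ratio of 1.40 (1.33 to 1.46). Nov had 4.60 in the deleted pool against 3.59 in the control pool. Npnt, which encodes the basement membrane protein nephronectin, had 12.5 in the deleted pool and 7.14 in the control pool, a ratio of 1.75 (1.59 to 1.93), whereas its receptor subunit Itga8 was low at 0.135 in the deleted pool against 0.137 in the control pool. The proteoglycan genes Dcn (3.79 in the deleted pool and 11.9 in the control pool) and Bgn (2.43 in the deleted pool against 6.08 in the control pool), both typical of fibroblasts, were lower.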

How the data were processed

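RNA-seq libraries of sorted lung cells were used, 1 per genotype, each from RNA of 4 pooled mice. The reads were processed with TopHat and Cufflinks on mm9, per the submitters' processing notes. Versions and settings: not given in the sources used here. Each table has 28107 rows, 1 per RefSeq transcript entry. Per the file headers, each row gives an FPKM value that the authors deposited, a transcript length, and the coverage, a signal of mean read depth. All rows of the 106 genes had status OK.

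FPKM was summed per gene symbol. Differences are on log2(FPKM + 1), the deleted pool minus control, for genes that reach an FPKM of 1 in a library. FPKM is not a count, so no count test was run. Reads were inferred as coverage times length over 47.1 bases, the median of low single-transcript rows between 25 and 75 bases; this size is an assumption that sets the width of intervals. Amplified reads are not independent molecules. Starts count from 0 in the tables and were raised by 1. Members, gene groups and lists were chosen with earlier results of these data known. Named genes were those with FPKM of at least 5, those at least 1.5-fold apart, and their chain or receptor partners; from the related lists, up to 3 with the largest differences at FPKM of at least 5, and Ctgf. Npnt, Cyr61 and the named markers were chosen for their role with values known. So were genes named below FPKM of 5 (Hspg2, Col3a1, Fn1, the low integrins and collagens, Ddr1 and the like). The result of 1 laminin gene is not reported here. Promoter windows came from RefSeq (GRCm38.p6) and matched 75 of the 106 symbols. Python 3.11.15, pandas 2.3.3, SciPy 1.17.1 and statsmodels 0.14.6 were used, and the counting steps were tested on simulated data.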

Additional observations from a re-analysis of the deposited data

How the results depend on the processing

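No paired analysis was possible because there is 1 library per group, and no replicate could be left out. The counts rest on the 1.5-fold rule and on low levels. Of 5 genes higher and 3 lower as reported, a pseudocount of 0.1 gave 10 higher, a pseudocount of 5 gave 1 higher and 1 lower, a filter at FPKM of 5 gave 2 and 1, a fold of 2 gave 1 and 1, and TPM, which lowers the filter in effect, gave 15 lower. Over all genes, a pseudocount of 0.1 gave 6.17% higher and 4.79% lower, and a pseudocount of 5 gave 0.845% and 0.684%. The filter at 5, which left 19 genes of the rule, gave 3.79% and 2.45% over all genes. A fold of 2 gave 0.754% and 0.975%. In TPM, which counted 74 genes of the rule, 8.79% of 14070 genes were lower. The median of the counted genes, 0.26, was 0.36 with a pseudocount of 0.1, 0.13 with a pseudocount of 5, 0.40 with the filter at 5, 0 without a filter, -0.0514 in TPM, 0.15 with the length trend subtracted, and 0.14 with a length and GC trend subtracted, a setting chosen after seeing the data. Chad and Sparc passed under all settings. The median of the integrin adhesion list was 0.23 with a pseudocount of 5, 0.19 without a filter, 0.24 in TPM, 0.21 with the length trend and 0.19 with the length and GC trend subtracted. That of the other matrix glycoproteins was 0.15 with a pseudocount of 5, 0.0024 without a filter and -0.0137 in TPM. That of the non-integrin receptors was 0.015 without a filter, -0.0073 in TPM and 0.14 with the length and GC trend subtracted. That of collagen synthesis, at -0.0033, was 0.0040 without a filter, 0.11 with the filter at 5 and 0.025 in TPM. Where no value shows it, the cause of these shifts was not tested. The status OK setting, median subtraction, the highest row per symbol and leaving out the 5 name-only genes kept the medians within 0.1. With the highest row per symbol, Col4a5 and Itga9 also passed the rule. Lamb1, Itgb8 and Itgad, all near 0, changed sign when the median was subtracted. Genes of a few reads cannot show a 1.5-fold difference at this depth.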

Other observations

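Col4a5 and Itga9, each listed with 2 transcript entries, differed more between entries than in their sums. For Col4a5, NM_007736 had an FPKM of 5.61 in the deleted pool and 2.12 in the control pool, whereas the longer NM_001163155 had 0.487 in the deleted pool against 3.17 in the control pool. The first thus held 92.0% of the gene's FPKM in the deleted pool and 40.1% in the control pool. The entries span the same locus, and how reads were divided between them was not tested. For Itga9, the long NM_133721 had FPKM of 8.59 in the deleted pool and 4.57 in the control pool, a ratio of 1.88, whereas NM_001113514, which starts downstream, had 4.77 in the deleted pool against 5.02 in the control pool. Itgb6 and Itgb5 each had nearly all of their FPKM on 1 of 2 entries in both libraries. Among genes with the same name stem that encode no matrix protein, Col4a3bp, a ceramide transfer protein gene, had FPKM of 10.7 in the deleted pool and 8.01 in the control pool, and Itgb1bp1 had 1.65 in the deleted pool against 1.71 in the control pool.

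Peroxidasin, the enzyme that makes sulfilimine crosslinks in type IV collagen, was the collagen synthesis gene that was higher by the 1.5-fold rule, and it was chosen after its values were seen. Pxdn had an FPKM of 1.37 in the deleted pool and 0.216 in the control pool, a ratio of 6.34 (4.45 to 9.07). Ddr1, a collagen receptor tyrosine kinase gene, was the third non-integrin receptor that was higher, at 3.79 in the deleted pool against 2.02 in the control pool. Ntn4, which encodes a netrin that binds laminin, had 1.89 in the deleted pool and 0.752 in the control pool, and Lims2, an adhesion adaptor gene, 1.76 in the deleted pool against 0.362 in the control pool. Pcolce, the procollagen C-proteinase enhancer gene, was lower, at 2.22 in the deleted pool and 4.21 in the control pool. All 5 were under FPKM of 5 in both libraries.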
